A study of Mus musculus with 4 samples.

Results

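Hemogenic endothelial cells (HECs) were set against Runx1- intra-aortic hematopoietic cluster cells (IAHCs), both sorted from aorta-gonad-mesonephros regions (AGMs) of E11 mouse embryos, that is at embryonic day 11. All genes at 10 or more TPM (a level scaled to transcript length and to the sum of the library) in the higher of the 2 libraries were compared, which gave 8792 of the 51205 genes in the table and 2 of the 4 libraries of the series. HECs were sorted as NG2-PDGFRβ-CD31+ckit-CD45-Runx1(GFP)+ cells. Runx1- IAHCs were sorted as NG2-PDGFRβ-CD31+ckit+Runx1(GFP)- cells, and CD45 was not gated. The gates therefore differed in Runx1(GFP), in ckit and in CD45 at once, and these cannot be told apart here. The remaining populations, endothelial cells (ECs, ckit-CD45-Runx1(GFP)-) and Runx1+ IAHCs (ckit+Runx1(GFP)+), came from the same AGMs and are given as levels beside the pair. All embryos carried GFP knocked into the Runx1 locus as a reporter, their genotype is labelled WT, and by the study's supplement embryos with the reporter on 1 or both copies of Runx1 were pooled.

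As background, HECs are cells of the aortic wall that turn into blood cells by the endothelial-to-hematopoietic transition (EHT), a step that needs the transcription factor Runx1. The new blood cells gather in clusters on the inner wall of the aorta, and the cluster cells carry ckit, the receptor for stem cell factor. CD31 is found on endothelium, on cluster cells, on platelets and their precursors, the megakaryocytes, and on primordial germ cells, which also carry ckit and reach the gonadal part of the AGM at this stage.

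There was 1 library per population, so no difference below has a replicate check and none was tested. Genes were counted as apart by a rule of size, at least 4-fold on the log2(TPM + 1) scale, which understates the difference of low genes. Read depth was alike, with 16377818 recovered reads in HECs and 17233031 in Runx1- IAHCs, and 20009 genes had a read in HECs, against 18835 in Runx1- IAHCs. The study lists the fewest sorted cells for Runx1- IAHCs, far fewer than for HECs, and made cDNA from part of the lysate. Alike depth is therefore not alike cell number, and the read numbers and intervals below do not account for the sampling of cells. The part of cell number in the results was not tested. Folds are ratios of recovered reads with exact 95% intervals, and against a library without a read they are lower bounds from a floor of 3 reads in that library. A gene without a read is still listed just above 0 TPM, because 1 read had been added to every gene before scaling. Intervals and floors cover counting error only, since reads amplified by PCR were not tagged by molecule. In pooled RNA, fewer cells of a type and less RNA per cell cannot be told apart.

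The sort marker genes come first, as a check of the labels, and the gates themselves set their differences. Runx1 (ENSMUSG00000022952, GRCm38 chromosome 16, 92601466 to 92826149, minus strand) was at 13.0 TPM in HECs (12.3 to 13.6, 95% interval), against 0.128 in Runx1- IAHCs (0.0631 to 0.203), with 0.311 TPM in ECs and 10.1 TPM in Runx1+ IAHCs. A searched exonic length makes its read number less certain. Kit (ENSMUSG00000005672, chromosome 5, 75574916 to 75656722, plus strand) was at 1.08 TPM in HECs, against 62.1 in Runx1- IAHCs, 57.8-fold lower in HECs (47.4 to 71.1). Both genes thus followed the gates. Pecam1, the CD31 gene, was at 41.3 TPM in HECs, against 86.7 in Runx1- IAHCs. Ptprc, the CD45 gene, was at 0.246 TPM in HECs (46 reads), had no read in Runx1- IAHCs and was at 11.4 TPM in Runx1+ IAHCs. The cluster gate without CD45 selection thus held no Ptprc read on its Runx1- side.

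Cell type markers did not follow the names of the gates throughout. Of 7 endothelial markers (Cdh5, Pecam1, Kdr, Tek, Emcn, Cldn5 and Esam), 6 were at 10 TPM or more in HECs and 7 in Runx1- IAHCs, but their summed level was 236 TPM in HECs against 1808 TPM in Runx1- IAHCs and 1730 TPM in ECs. Cldn5 held most of the Runx1- IAHC sum, and the other 6 summed to 192 TPM in HECs, 612 TPM in Runx1- IAHCs and 1375 TPM in ECs. Of 6 blood markers, 5 were at 10 TPM or more in HECs, with a sum of 2638 TPM, and 2 in Runx1- IAHCs, with a sum of 33.4 TPM. Runx1+ IAHCs held 1854 TPM of these blood markers and ECs 59.3 TPM. Fcer1g, also a chain of the platelet collagen receptor, made up 2033 TPM of the HEC sum and 562 TPM of the Runx1+ IAHC sum. Without Fcer1g the blood marker sum was larger in Runx1+ IAHCs than in HECs. The 5 megakaryocyte markers added up to 47592 TPM in HECs, 45657 TPM of it Pf4, against 56.2 in Runx1- IAHCs. The 6 germ cell markers summed to 0.813 TPM in HECs, against 2060 in Runx1- IAHCs. The HEC library was thus led by platelet genes, and the Runx1- IAHC library, named for hematopoietic clusters, had all 7 endothelial markers at 10 TPM or more, few blood markers, and germ cell markers well above every other library. HEC and Runx1- IAHC are therefore used below as names of gates. Markers of pericytes, macrophages and other AGM tissues were low in both, apart from Acta2 (51.01 TPM in HECs) and Epcam (104 TPM in Runx1- IAHCs).

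Across the 8792 genes, 658 genes (7.48%) in HECs were higher by the rule of size and 1760 (20.0%) were lower. The median difference of log2(TPM + 1), HEC minus Runx1- IAHC, was -0.63, and the middle 50% of genes lay between -1.69 and 0.45. More genes were therefore lower than higher in HECs, 5685 against 3107 by sign alone. Of the higher genes, 27.2% of all those apart, 159 were at 100 TPM or more in HECs, and of the lower genes 321 were at 100 TPM or more in Runx1- IAHCs. Scaling by median ratios, which shifted log2 ratios up by 0.31 before the pseudocount, gave 782 higher and 1285 lower genes, so that 37.8% of those apart were higher. Of the higher genes 168 had no read in Runx1- IAHCs, and of the lower genes 175 had no read in HECs. At the edge of the 10 TPM minimum, Tnrc6a entered with 10.01 TPM in HECs, against 4.46 in Runx1- IAHCs, whereas Sltm stayed out with 9.99 TPM in HECs, against 8.17 in Runx1- IAHCs.

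**Figure D1:**
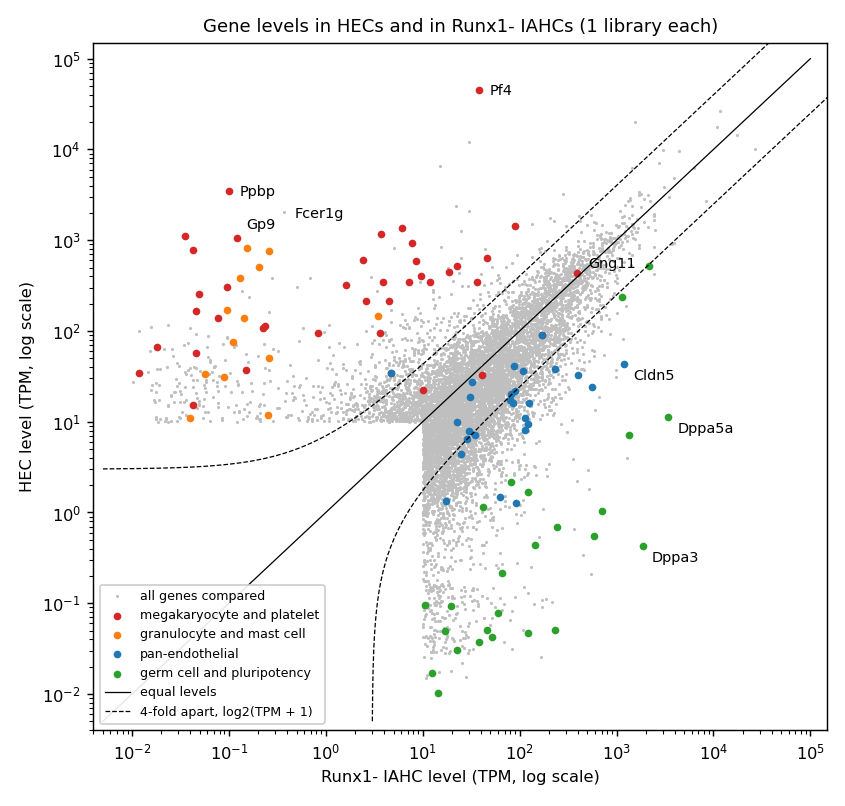
TPM of the 8792 genes in the HEC library (vertical) against the Runx1- IAHC library (horizontal), both on log axes, 1 point per gene, with 4 gene lists in colour, a solid line at equal levels and dashed lines where log2(TPM + 1) is 4-fold apart. Of the platelet genes (red) 36 of 40 lie above the upper dashed line, with the granulocyte genes (orange), Pf4 at 45657 TPM in HECs, against 38.1 in Runx1- IAHCs, and germ cell genes (green) lie below the lower one, Dppa3 at 0.429 TPM in HECs, against 1866 in Runx1- IAHCs.

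Genes of megakaryocytes and platelets were mostly higher in HECs. Of 41 listed, 40 were at 10 TPM or more in HECs and 11 in Runx1- IAHCs, against 6334 and 7799 of all 51205 genes. Of the 40 compared, 29 entered through HECs only, so the minimum set the direction of these 29. By the rule 36 of the 40 were at least 4-fold higher and 0 lower, against 7.48% and 20.0% of all genes. The median difference of the 40 was 5.87, against -0.63 for all genes. The 41 listed genes took 6.73% of all listed TPM in HECs and 0.101% in Runx1- IAHCs. Pf4 alone held 45657 of their 64416 TPM in HECs. In ECs and Runx1+ IAHCs the share of the 41 genes was 0.207% and 0.132%. The HEC share was thus above that of all 3 other libraries, and what part megakaryocytes or platelets among the sorted cells took in it was not tested.

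Chemokines of the platelet alpha granule had the highest levels, and the promoters of 4 platelet genes are shown because these genes were among the 12 furthest above Runx1- IAHCs. The fifth, Thbs1, was not matched. Each run is the 250 bases before the start site in RefSeq (GRCm38.p6), with matches on either strand to the ETS motif GGAAGT, the RUNX motif TGTGGT or the GATA motif AGATAA in capitals.
Pf4, chr5:90772185-90772434, plus strand: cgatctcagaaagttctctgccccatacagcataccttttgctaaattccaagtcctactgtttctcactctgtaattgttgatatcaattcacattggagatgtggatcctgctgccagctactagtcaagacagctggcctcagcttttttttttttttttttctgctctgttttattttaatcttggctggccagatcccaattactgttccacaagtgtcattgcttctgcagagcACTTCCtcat
Ppbp, chr5:90768268-90768517, plus strand: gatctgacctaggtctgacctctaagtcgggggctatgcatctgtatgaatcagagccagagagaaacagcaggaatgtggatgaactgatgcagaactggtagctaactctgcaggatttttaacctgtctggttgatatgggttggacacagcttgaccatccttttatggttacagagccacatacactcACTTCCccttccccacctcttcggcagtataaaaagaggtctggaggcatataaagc
Gp9, chr6:87777820-87778069, plus strand: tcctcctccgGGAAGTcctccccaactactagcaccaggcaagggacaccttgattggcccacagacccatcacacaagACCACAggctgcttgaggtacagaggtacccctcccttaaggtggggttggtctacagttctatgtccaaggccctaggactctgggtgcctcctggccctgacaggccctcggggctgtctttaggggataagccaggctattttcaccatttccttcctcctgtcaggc
F2rl2, chr13:95696670-95696919, plus strand: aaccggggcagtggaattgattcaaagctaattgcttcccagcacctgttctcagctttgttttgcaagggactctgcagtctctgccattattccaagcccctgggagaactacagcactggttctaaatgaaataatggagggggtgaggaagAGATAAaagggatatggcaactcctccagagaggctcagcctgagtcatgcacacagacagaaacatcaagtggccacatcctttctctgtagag
Of the 4, Pf4, Ppbp and Gp9 held 1 ETS match each, at position -10 in Pf4, -57 in Ppbp and -240 in Gp9, Gp9 held a RUNX match at -171, and F2rl2 held no ETS match but a GATA match at -95 (first base of the match, counted back from the start site). None of the 4 held the octamer ATGCAAAT. Of 30 platelet genes with a promoter in the table, 10 (33.3%) held GGAAGT, 6 (20.0%) AGATAA and 3 TGTGGT. Over all 19346 promoters these shares were 20.7%, 9.29% and 13.0%, and over the 5432 promoters of compared genes 25.5%, 5.98% and 10.8%. Among all higher genes 22.3% held GGAAGT and 9.45% AGATAA, and among all lower genes 23.3% and 5.30%. A match is a run of letters only and marks no bound site.

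Pf4 (ENSMUSG00000029373, chromosome 5, 90772435 to 90773383), platelet factor 4, was the most abundant gene of the HEC library at 45657 TPM, against 38.1 TPM in Runx1- IAHCs, 1202-fold higher (1063 to 1365), with 360 TPM in ECs and 67.1 TPM in Runx1+ IAHCs. Its neighbour Ppbp (ENSMUSG00000029372, chromosome 5, 90768518 to 90770063), the precursor of another platelet chemokine, was at 3494 TPM in HECs but lacked any Runx1- IAHC read, at least 11699-fold higher. Thbs1, the adhesive glycoprotein thrombospondin 1, was at 1098 TPM in HECs and had 1 read in Runx1- IAHCs, with 9.28 TPM in ECs and 6.11 TPM in Runx1+ IAHCs. Each of these was thus far higher in HECs than in any other library. The granule proteoglycan gene Srgn differed from them, with 402 TPM in HECs, 9.62 TPM in Runx1- IAHCs and 393 TPM in Runx1+ IAHCs. Of 7 granule genes, 6 were higher, and Mmrn1, multimerin 1, was not (32.4 TPM in HECs, against 41.4 in Runx1- IAHCs).

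Platelet surface receptors were higher for 17 of 18 genes, with a median difference of 6.00. Of the 18, 8 had no read in Runx1- IAHCs, so the minimum set the direction of at least these 8. Gp9 (ENSMUSG00000030054, chromosome 6, 87778072 to 87779768), a subunit of the platelet receptor for von Willebrand factor, was at 1053 TPM in HECs but lacked any Runx1- IAHC read, at least 2868-fold higher. Gp1ba, the subunit that binds the ligand, was at 319 TPM in HECs, against 1.63 in Runx1- IAHCs, 201-fold higher (148 to 282). Itga2b and Itgb3, the chains of the platelet fibrinogen receptor, were at 215 TPM and 597 TPM in HECs against 4.45 TPM and 8.59 TPM in Runx1- IAHCs. Itga2b encodes CD41, also an early mark of EHT. F2rl2, a thrombin receptor, was at 771 TPM in HECs without a read in Runx1- IAHCs, and Treml1 was at 933 TPM in HECs, against 7.77 in Runx1- IAHCs. Endothelium also carries some of these receptors, and Esam was the one not higher, at 90.0 TPM in HECs, against 172 in Runx1- IAHCs.

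Signalling and cytoskeletal platelet genes moved the same way. The signal regulator Rgs18 was at 606 TPM in HECs, against 2.44 in Runx1- IAHCs, 254-fold higher (189 to 348). The eicosanoid enzymes Alox12, Ptgs1 and Tbxas1 were at 349, 94.5 and 34.2 TPM in HECs, and at 3.85 and 0.833 TPM and without a read in Runx1- IAHCs. Tubb1, the beta tubulin of the platelet rim, was at 139 TPM in HECs and had no read in Runx1- IAHCs. Myl9, a myosin light chain of platelets and smooth muscle, was at 1359 TPM in HECs, against 6.12 in Runx1- IAHCs, 225-fold higher (177 to 292). Of 11 signalling genes 9 were higher, and the G protein subunit Gng11 (430 TPM in HECs, against 395 in Runx1- IAHCs) and the thromboxane receptor Tbxa2r (22.1 TPM in HECs, against 10 in Runx1- IAHCs) were not.

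**Figure D2:**
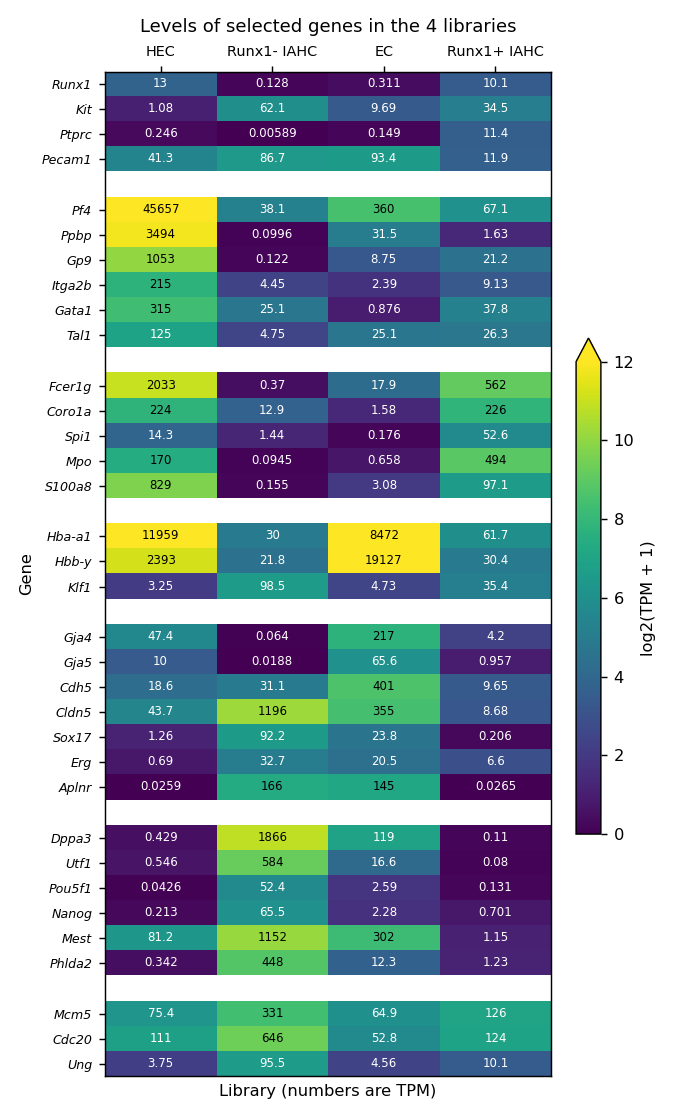
TPM of selected genes (rows, grouped by kind) in the 4 libraries (columns, 1 library each), with colour for log2(TPM + 1) and the TPM printed in each cell. Platelet genes are brightest in the HEC column, Ppbp at 3494 TPM, whereas Dppa3, at 1866 TPM, and Cldn5, at 1196 TPM, are brightest in the Runx1- IAHC column.

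The transcription factors of megakaryocytes and red cells were higher with them. Of 6 such factors 5 were higher in HECs, with a median difference of 3.56. Gata1 (ENSMUSG00000031162, chromosome X, 7959260 to 7978071, minus strand), which both lineages need, was at 315 TPM in HECs, against 25.1 in Runx1- IAHCs, 12.6-fold higher (11.5 to 13.7), with 0.876 TPM in ECs and 37.8 TPM in Runx1+ IAHCs. Nfe2, a factor of platelet release, was at 238 TPM in HECs, against 14.8 in Runx1- IAHCs, and Zfpm1, the partner of Gata1 known as FOG1, at 32.2 TPM in HECs, against 1.88 in Runx1- IAHCs. Gfi1b, a target of Runx1 that represses endothelial genes during EHT, was at 246 TPM in HECs, against 57.4 in Runx1- IAHCs, 4.29-fold higher (4.01 to 4.61). Runx1- IAHCs thus held reads of all these factors with few of Runx1.

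The heptad of blood stem cell factors and their partners did not move as one. Of 11 compared, Lmo2 and Cbfa2t3 were higher in HECs, Erg was lower and 8 were neither, with a median difference of 0.26. Tal1, counted with the red cell factors and also a heptad member, was at 125 TPM in HECs, against 4.75 in Runx1- IAHCs, 26.5-fold higher (22.9 to 30.7). Erg, an ETS factor of endothelium and stem cells, was at 0.690 TPM in HECs, against 32.7 in Runx1- IAHCs, 49.3-fold lower (32.9 to 77.3), with 20.5 TPM in ECs and 6.60 TPM in Runx1+ IAHCs. Gata2 was at 16.7 TPM in HECs, against 15.6 in Runx1- IAHCs, and Fli1 at 80.5 TPM in HECs, against 45.2 in Runx1- IAHCs. Lyl1, the remaining factor counted with the red cell ones, at 134 TPM in HECs, against 41.6 in Runx1- IAHCs, fell short of the rule of size. Spi1, the myeloid factor PU.1, was at 14.3 TPM in HECs, against 1.44 in Runx1- IAHCs, 10.2-fold higher (7.19 to 14.8), and highest in Runx1+ IAHCs at 52.6 TPM. Myb, Gfi1 and Ikzf1 were under 10 TPM in both libraries and were not compared.

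Genes shared by most blood cells were mostly higher in HECs. Of 27 listed, 22 were at 10 TPM or more in HECs and 9 in Runx1- IAHCs. Of the 22 compared, 13 entered through HECs only, so the minimum set the direction of these 13. By the rule 16 of the 22 were higher and 1 lower, against 7.48% and 20.0% of all genes, with a median difference of 3.14. Fcer1g (ENSMUSG00000058715, chromosome 1, 171229572 to 171234365, minus strand), a signalling chain of Fc receptors and of the platelet collagen receptor, was at 2033 TPM in HECs and had 2 reads in Runx1- IAHCs, 8240-fold higher (2281 to 68042), with 17.9 TPM in ECs and 562 TPM in Runx1+ IAHCs. Its relative Tyrobp was at 239 TPM in HECs, had no read in Runx1- IAHCs and was at 734 TPM in Runx1+ IAHCs. The adaptor Lcp2 was at 108 TPM in HECs, against 0.580 in Runx1- IAHCs. Coro1a, an actin regulator of blood cells, was at 224 TPM in HECs, against 12.9 in Runx1- IAHCs, 17.5-fold higher (15.6 to 19.5). Of the 16 higher genes, 15 were at 10 TPM or more in Runx1+ IAHCs and 5 in ECs. The 1 lower gene was Lcp1, plastin 2, at 12.2 TPM in HECs, against 56.9 in Runx1- IAHCs, 4.66-fold lower (4.37 to 4.96). Its level in Runx1+ IAHCs was 88.4 TPM. Ptpn6, at 65.3 TPM in HECs, against 92.7 in Runx1- IAHCs, and Vav1, at 33.2 TPM in HECs, against 14.6 in Runx1- IAHCs, were neither.

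Granulocyte genes were close to absent from Runx1- IAHCs. Of 20 listed, 13 were at 10 TPM or more in HECs and 0 in Runx1- IAHCs, where 18 had no read. The 13 compared entered through HECs only, so the minimum set their direction. Of the other 7, Cpa3, of mast cells, was at 9.09 TPM in HECs without a read in Runx1- IAHCs, and Ctsg and Mcpt8 had no read in either. Mpo (ENSMUSG00000009350, chromosome 11, 87793581 to 87804413), the peroxidase of the primary granules, was at 170 TPM in HECs and had 2 reads in Runx1- IAHCs, with 494 TPM in Runx1+ IAHCs. S100a8 and S100a9, which form calprotectin, were at 829 TPM and 511 TPM in HECs without a read in Runx1- IAHCs, and at 97.1 TPM and 35.4 TPM in Runx1+ IAHCs. Prg2, the eosinophil major basic protein, was at 380 TPM in HECs without a read in Runx1- IAHCs or ECs, and at 16.3 TPM in Runx1+ IAHCs. Stfa1, from a family of near-identical stefins whose reads can be split between copies, was at 759 TPM in HECs. The HEC library thus held transcripts of granulocytes, Ngp and Camp among them (31.3 TPM and 137 TPM in HECs). Ltf, another granulocyte gene, had a difference of only 0.24. Of the 13 genes, 8 were at 10 TPM or more in Runx1+ IAHCs and 0 in ECs. Of 12 macrophage genes only Lyz2 was compared (286 TPM in HECs, against 12.9 in Runx1- IAHCs), and Csf1r was at 3.23 TPM in HECs and had no read in Runx1- IAHCs.

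Red cell genes divided by role. All 7 globins were higher in HECs, and took 2.70% of listed TPM in HECs and 0.0503% in Runx1- IAHCs. Hba-a1, an alpha globin, was at 11959 TPM in HECs, against 30.0 in Runx1- IAHCs, 400-fold higher (351 to 458), with 8472 TPM in ECs and 61.7 TPM in Runx1+ IAHCs. The embryonic globin Hbb-y was at 2393 TPM in HECs, 21.8 TPM in Runx1- IAHCs and 19127 TPM in ECs. Globins were thus abundant in both ckit- libraries and low in both ckit+ ones. Hba-a1 and Hba-a2 are near-identical copies, so their separate levels are uncertain. The membrane, heme and iron genes of red cells did not follow, with 1 of 7 higher, 1 lower and a median difference of -0.17, which changed sign to 0.26 under median-ratio scaling. Alas2 and Slc4a1, red cell genes of heme synthesis and of the membrane, were at 1.83 TPM and 0.0783 TPM in HECs, against 0.404 TPM and 0.0220 TPM in Runx1- IAHCs. Epor, the erythropoietin receptor, was at 93.8 TPM in HECs, against 11.1 in Runx1- IAHCs, 8.48-fold higher (7.34 to 9.84). Klf1, the master factor of red cells, was at 3.25 TPM in HECs, against 98.5 in Runx1- IAHCs, 30.8-fold lower (23.3 to 41.6), with 35.4 TPM in Runx1+ IAHCs.

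Surface proteins used to follow EHT and stem cells were mixed. Of 9 compared, 4 entered through HECs only and 2 through Runx1- IAHCs only, so the minimum set the direction of these. By the rule 5 of the 9 were higher and 2 lower in HECs, against 7.48% and 20.0% of all genes. Adgrg1, the receptor Gpr56 of emerging stem cells, was at 115 TPM in HECs, against 18.8 in Runx1- IAHCs, 6.11-fold higher (5.71 to 6.55), with 88.2 TPM in Runx1+ IAHCs. Slamf1, the stem cell marker CD150 that megakaryocytes also carry, was at 21.2 TPM in HECs and had no read in Runx1- IAHCs. Cd34, of endothelium and progenitors, was at 16.2 TPM in HECs, against 125 in Runx1- IAHCs, 7.75-fold lower (7.30 to 8.23), and above 100 TPM in ECs and Runx1+ IAHCs too. Ly6a, which encodes Sca1, had no read in HECs or Runx1- IAHCs. Of 9 stem cell associated regulators compared, 3 entered through HECs only and 3 through Runx1- IAHCs only, so the minimum set the direction of these. By the rule 5 of the 9 were lower and 1 higher in HECs, against 20.0% and 7.48% of all genes. The lower ones included Hoxa9 (0.978 TPM in HECs, against 18.2 in Runx1- IAHCs), Hoxa10, Mycn and Ndn. Their median of -2.09 changed sign under both other scalings as members crossed the 10 TPM minimum. Hlf and Mecom were below 10 TPM in both libraries.

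Among 7 cytokine receptors compared, 2 were higher in HECs, Epor among them, and Kit, Ifngr1, Ifnar1 and Tnfrsf1a were lower. Over all genes 7.48% were higher and 20.0% lower. Of the 7, 1 entered through HECs only and 3 through Runx1- IAHCs only, so the minimum set the direction of these. Ifngr1, a chain of the interferon gamma receptor, was at 13.3 TPM in HECs, against 72.9 in Runx1- IAHCs, 5.50-fold lower (4.94 to 6.15), and Tnfrsf1a, the main receptor for tumor necrosis factor, at 4.84 TPM in HECs, against 26.5 in Runx1- IAHCs. The median of these 7 genes was -2.14 and changed sign with the minimum level. Of 10 lymphoid genes only Lck, a kinase of T cells, was compared. It was at 0.0980 TPM in HECs (2 reads) and 68.7 TPM in Runx1- IAHCs, with 28.7 TPM in ECs.

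Endothelial genes were mostly lower in HECs. Of 29 listed, 16 were at 10 TPM or more in HECs and 25 in Runx1- IAHCs. Of the 26 compared, 10 entered through Runx1- IAHCs only and 1 through HECs only, so the minimum set the direction of these. The other 15 reached the minimum in both libraries. By the rule of size 15 of the 26 were lower in HECs and 1 higher, against 20.0% and 7.48% of all genes. The median difference of the 26 was -2.20, against -0.63 for all genes. The 29 listed genes took 0.0582% of listed TPM in HECs and 0.420% in Runx1- IAHCs. Cldn5 (ENSMUSG00000041378, chromosome 16, 18776847 to 18778260), the tight junction claudin of endothelium, was at 43.7 TPM in HECs, against 1196 in Runx1- IAHCs, 27.4-fold lower (25.3 to 29.7), with 355 TPM in ECs and 8.68 TPM in Runx1+ IAHCs. Its length was a searched one. Plvap, of capillary diaphragms, was at 24.2 TPM in HECs, 561 TPM in Runx1- IAHCs and 482 TPM in ECs. Tek, the angiopoietin receptor, was at 11.1 TPM in HECs, against 113 in Runx1- IAHCs, 10.1-fold lower (9.28 to 11.1). All 15 lower genes were at 10 TPM or more in ECs too, and 6 were in Runx1+ IAHCs.

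Defining endothelial genes were not all lower by the rule of size. Cdh5, VE-cadherin, was at 18.6 TPM in HECs, against 31.1 in Runx1- IAHCs, both far below the 401 TPM in ECs. Kdr, the main VEGF receptor, was at 21.7 TPM in HECs, against 89.1 in Runx1- IAHCs, a difference of -1.99 just short of the rule. Vwf, von Willebrand factor, which platelets hold as well, was the gene higher in HECs, at 34.3 TPM in HECs, against 4.66 in Runx1- IAHCs, 7.38-fold higher (6.82 to 7.99).

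Endothelial transcription factors were lower for 4 of 5 genes, with a median difference of -3.65. Sox17 (ENSMUSG00000025902, chromosome 1, 4490931 to 4497354, minus strand), a SoxF factor of arteries and of cluster formation, was at 1.26 TPM in HECs, against 92.2 in Runx1- IAHCs, 74.1-fold lower (57.7 to 96.9), with 23.8 TPM in ECs and 0.206 TPM in Runx1+ IAHCs. Its relative Sox18 was at 8.04 TPM in HECs, against 113 in Runx1- IAHCs, and Ets1 at 1.47 TPM in HECs, against 62.6 in Runx1- IAHCs. Sox7, at 6.53 TPM in HECs, against 28.6 in Runx1- IAHCs, was just short of the rule of size, with a difference of -1.97. Sox17 and Sox18 were thus at least 4-fold lower in HECs, and Sox7 lay the same way within the rule.

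Of 10 venous and lymphatic genes listed, 0 were at 10 TPM or more in HECs and 6 in Runx1- IAHCs. These 6 were the ones compared, so the minimum set their direction, and each was at 10 TPM or more in ECs and below it in Runx1+ IAHCs. Of the other 4, Lyve1, a lymphatic and macrophage receptor, was at 6.85 TPM in HECs, against 2.99 in Runx1- IAHCs. Aplnr (ENSMUSG00000044338, chromosome 2, 85136225 to 85139923), the apelin receptor, lacked any read in HECs and was at 166 TPM in Runx1- IAHCs, at least 2135-fold lower, with 145 TPM in ECs and no read in Runx1+ IAHCs. Nr2f2, the venous factor COUP-TFII, was at 0.466 TPM in HECs, against 11.7 in Runx1- IAHCs, and Ephb4, a venous ephrin receptor, at 1.30 TPM in HECs, against 32.1 in Runx1- IAHCs. Flt4, a VEGF receptor of lymphatic vessels, was at 0.523 TPM in HECs, against 29.1 in Runx1- IAHCs.

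Arterial and Notch genes mostly lay below the minimum, with 4 of 19 compared. Through HECs only entered 2 of the 4, and through Runx1- IAHCs only the other 2, so the minimum set their direction. Among the 15 not compared, 8 had a positive and 7 a negative difference. Gja4 and Gja5, the connexins of arteries, were at 47.4 TPM and 10.03 TPM in HECs but lacked any Runx1- IAHC read, at least 247-fold and 178-fold higher, with 217 TPM and 65.6 TPM in ECs. The Notch targets Hes1 and Hey1 were lower, at 1.46 TPM and 5.31 TPM in HECs against 21.0 TPM and 49.0 TPM in Runx1- IAHCs. Hey2, another Notch target of arteries, was at 0.625 TPM in HECs, had no read in Runx1- IAHCs and was at 8.81 TPM in ECs. The Notch receptors and ligands Notch1, Notch4, Dll4, Jag1 and Jag2 were all under 10 TPM in both libraries.

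Matrix, junction and signalling genes of the vessel wall were lower in HECs or did not pass. Of 14 matrix genes 6 entered through Runx1- IAHCs only, so the minimum set the direction of these 6. By the rule 7 of the 14 were lower and 0 higher, against 20.0% and 7.48% of all genes, with a median difference of -1.72. The basement membrane gene Nid2 was at 1.17 TPM in HECs, against 70.6 in Runx1- IAHCs, 61.5-fold lower (47.9 to 80.4), with 25.4 TPM in ECs. Col4a2, a collagen of the same layer, was at 15.5 TPM in HECs, against 19.6 in Runx1- IAHCs, against 278 TPM in ECs, so not all of these genes stood near the EC level in Runx1- IAHCs. Of 13 genes of junctions and caveolae 6 likewise entered through Runx1- IAHCs only. By the rule 5 of the 13 were lower, among them Tjp1, a scaffold of tight junctions (2.16 TPM in HECs, against 35.9 in Runx1- IAHCs). Cavin2, a caveolar protein that binds phosphatidylserine, was higher, at 130 TPM in HECs, against 11.4 in Runx1- IAHCs, 11.4-fold higher (10.2 to 12.9). Of 9 genes of TGF-beta, BMP and PDGF signalling 6 likewise entered through Runx1- IAHCs only, and 4 of the 9 were lower. These included Acvrl1, an endothelial receptor for BMP9 (1.41 TPM in HECs, against 17.2 in Runx1- IAHCs), and Id3, a BMP target (39.0 TPM in HECs, against 389 in Runx1- IAHCs).

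**Figure D3:**
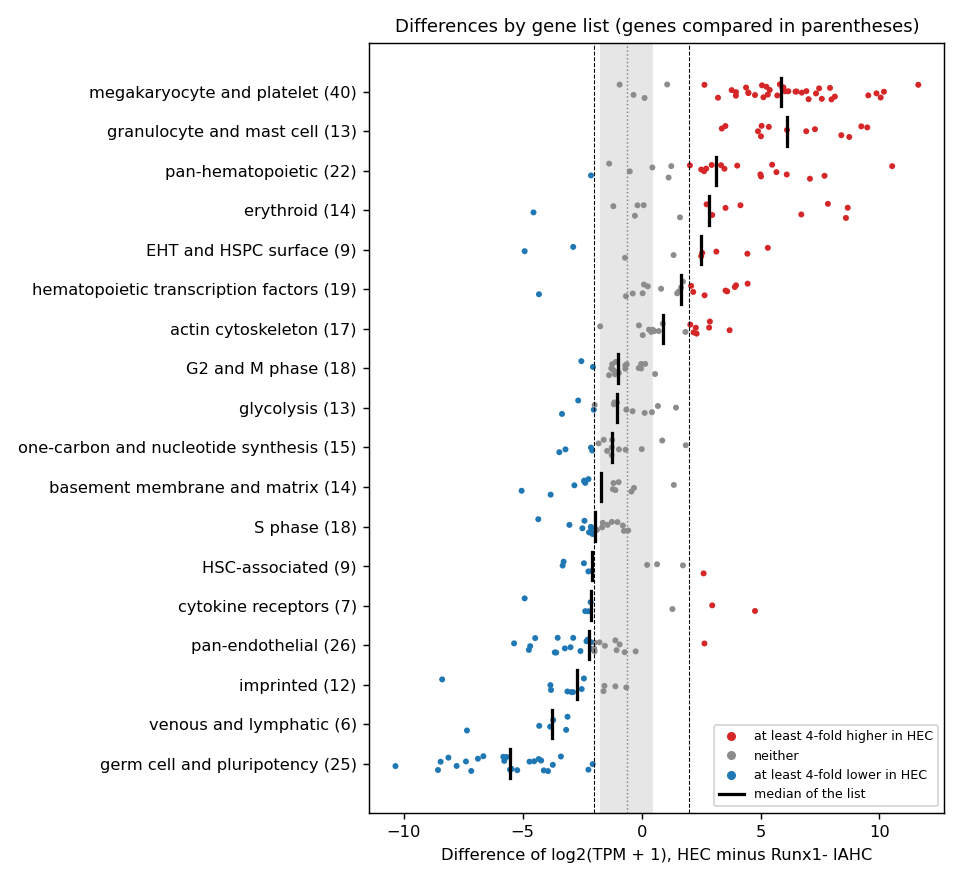
Difference of log2(TPM + 1), HEC minus Runx1- IAHC, for the compared genes of 18 lists (1 point per gene, jittered in height, number compared in parentheses), with a black bar at the median of each list, dashed lines at the 4-fold rule and a grey band over the middle 50% of all 8792 genes with a dotted line at their median of -0.63. Platelet genes (median 5.87) lie mostly to the right and germ cell genes (-5.54) to the left, and for lists that entered through 1 library the 10 TPM minimum set the side.

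Of 36 germ cell and pluripotency genes listed, 3 were at 10 TPM or more in HECs and 25 in Runx1- IAHCs. Of the 25 compared, 22 entered through Runx1- IAHCs only, so the minimum set the direction of these 22. All 25 were lower by the rule of size. The 36 genes took 0.0823% of listed TPM in HECs against 1.34% in Runx1- IAHCs. Their share was 0.150% in ECs and 0.196% in Runx1+ IAHCs. Ifitm1 and Ifitm3, also expressed outside germ cells, made up most of the HEC share and of the Runx1+ IAHC share. Those shares therefore say little about germ cell transcripts. For the 12 pluripotency genes of the list, Ifitm1 and Ifitm3 not among them, the sums were 1.45 (HECs), 408 (Runx1- IAHCs), 51.6 (ECs) and 4.90 TPM (Runx1+ IAHCs). By these sums ECs lay above Runx1+ IAHCs, unlike in the shares. Dppa3 (ENSMUSG00000046323, chromosome 6, 122626410 to 122630272), also called Stella, an early mark of germ cells, was at 0.429 TPM in HECs (3 reads) and 1866 TPM in Runx1- IAHCs, 5796-fold lower (1983 to 28109), with 119 TPM in ECs and no read in Runx1+ IAHCs. Prdm1, Prdm14 and Tfap2c, the factors that specify germ cells, had no read, no read and 2 reads in HECs, against 12.5, 37.97 and 59.7 TPM in Runx1- IAHCs. The pluripotency factors Pou5f1 and Nanog had no read and 4 reads in HECs, and were at 52.4 TPM and 65.5 TPM in Runx1- IAHCs. Utf1, a chromatin factor of pluripotent cells, was at 0.546 TPM in HECs, against 584 in Runx1- IAHCs, 1248-fold lower (573 to 3401).

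Other germ cell genes lay the same way for the most part. Nanos3 and Dnd1, RNA-binding proteins that keep germ cells alive, were at 2.18 TPM and 1.67 TPM in HECs, against 82.4 TPM and 123 TPM in Runx1- IAHCs. Alpl, the alkaline phosphatase by which germ cells are stained, had 1 read in HECs and was at 123 TPM in Runx1- IAHCs. Rhox5, Rhox6 and Rhox9, homeobox genes of a repeated X-linked cluster, were at 7.11, 1.04 and 0.693 TPM in HECs, against 1356, 715 and 242 TPM in Runx1- IAHCs. Ifitm1 and Ifitm3, also expressed outside germ cells, were lower by the smallest margins of the list, at 238 TPM and 521 TPM in HECs, against 1128 TPM and 2172 TPM in Runx1- IAHCs. Under median-ratio scaling both fell short of the rule of size. Of 9 later germ cell genes Tex19.1, which holds mobile elements in check, lacked a read in HECs, against 230 TPM in Runx1- IAHCs, at least 1497-fold lower. Dazl and Ddx4 were at 3.74 TPM and 3.36 TPM in Runx1- IAHCs with no read in HECs, below the 10 TPM minimum, and Brdt was at 0.786 TPM in HECs without a read in Runx1- IAHCs. Of the 25 genes, 10 were at 10 TPM or more in ECs, 2 in Runx1+ IAHCs (Ifitm1 and Ifitm3) and 15 in neither. What part germ cells within the ckit+ gate took in these levels was not tested, and the epithelial marker Epcam, which germ cells also carry, was 46.1-fold lower in HECs (30.8 to 72.3).

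The 12 genes furthest below Runx1- IAHCs at 100 TPM or more held 4 others beside these lists. Gstm3, a glutathione transferase, was at 0.657 TPM in HECs, against 360 in Runx1- IAHCs. Tcl1, a coactivator of the kinase Akt in pluripotent cells, had 1 read in HECs and was at 216 TPM in Runx1- IAHCs, and Sox15 lacked any read in HECs and was at 188 TPM in Runx1- IAHCs. These 3 were each under 5 TPM in ECs and Runx1+ IAHCs. Prl3b1, a placental lactogen, lacked any read in HECs and was at 171 TPM in Runx1- IAHCs and 117 TPM in ECs.

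Imprinted genes, expressed from 1 parental copy and many of them growth regulators, were lower in HECs for 8 of 12 compared. Over all genes 20.0% were lower. Of 19 listed, 5 were at 10 TPM or more in HECs and 12 in Runx1- IAHCs, so 7 of the 12 entered through Runx1- IAHCs only. Mest (ENSMUSG00000051855, chromosome 6, 30723547 to 30748465) was at 81.2 TPM in HECs, against 1152 in Runx1- IAHCs, 14.2-fold lower (13.7 to 14.7), with 302 TPM in ECs and 1.15 TPM in Runx1+ IAHCs. Phlda2, which limits placental growth, was at 0.342 TPM in HECs, against 448 in Runx1- IAHCs, 1750-fold lower (598 to 8489), with 12.3 TPM in ECs. Snrpn was at 15.7 TPM in HECs, against 238 in Runx1- IAHCs. Igf2, the fetal growth factor, was within the rule of size at 90.4 TPM in HECs, against 195 in Runx1- IAHCs, below the 979 TPM in ECs. All 8 lower genes were at 10 TPM or more in ECs.

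Replication genes were lower in HECs in part. All 18 S phase genes had a negative difference and 9 were lower by the rule of size, against 20.0% of all genes, with a median of -1.97 against -0.63. Mcm5, a subunit of the replicative helicase, was at 75.4 TPM in HECs, against 331 in Runx1- IAHCs, 4.38-fold lower (4.22 to 4.56), with 64.9 TPM in ECs and 126 TPM in Runx1+ IAHCs. Rrm2, of nucleotide reduction, was at 90.5 TPM in HECs, against 513 in Runx1- IAHCs. Ung, which removes uracil from DNA, was at 3.75 TPM in HECs, against 95.5 in Runx1- IAHCs, 25.6-fold lower (22.3 to 29.5). Under median-ratio scaling Mcm2, Mcm5, Mcm6, Mcm7 and Hells fell short of the rule, which left 4 of 18 against 15.2% of all genes. Mitosis genes differed less, with 2 of 18 lower, against 20.0% of all genes, and a median of -0.98 against -0.63. The 2 lower ones were Cdc20 (111 TPM in HECs, against 646 in Runx1- IAHCs) and Ccnb1. Mki67, the proliferation marker, was at 37.97 TPM in HECs, against 34.1 in Runx1- IAHCs.

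Metabolic genes were lower about as often as all genes. Of 15 genes of one-carbon and nucleotide synthesis 4 were lower, Shmt1, Gart, Umps and Phgdh, that is 26.7% against 20.0% of all genes. Shmt1, which passes one-carbon units from serine, was at 10.2 TPM in HECs, against 122 in Runx1- IAHCs, 12.03-fold lower (10.9 to 13.3). Of 13 glycolysis genes 3 (23.1%) were lower. Umps, Phgdh and the glycolysis gene Eno1 fell short of the rule under median-ratio scaling. Pfkl, the liver-type phosphofructokinase, was at 17.9 TPM in HECs, against 191 in Runx1- IAHCs, and Pkm, pyruvate kinase, at 159 TPM in HECs, against 1017 in Runx1- IAHCs. Ldha, lactate dehydrogenase, ran against them within the rule, at 1082 TPM in HECs, against 673 in Runx1- IAHCs.

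Actin and actin-binding genes were higher in part. Of 17 compared 7 were higher in HECs and 0 lower, against 7.48% and 20.0% of all genes, with a median difference of 0.89. All 7 were at 10 TPM or more in every library. Tmsb4x, which binds actin monomers and is abundant in platelets, was at 20258 TPM in HECs, against 1558 in Runx1- IAHCs, 13.0-fold higher (12.8 to 13.2), with 10567 TPM in ECs and 6485 TPM in Runx1+ IAHCs. Actg1, cytoplasmic gamma actin, was at 1627 TPM in HECs, against 227 in Runx1- IAHCs, whereas Actb, beta actin, was at 4808 TPM in HECs, against 3874 in Runx1- IAHCs. Tln1 and Zyx, which tie actin to integrins, were 5.02-fold (4.79 to 5.26) and 7.46-fold (7.13 to 7.81) higher.

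Genes apart in this pair were looked up in the other libraries, since ECs share the ckit- gate with HECs and the Runx1- gate with Runx1- IAHCs, and Runx1+ IAHCs the reverse. Of the 658 higher genes, 50 (7.60%) were at 10 TPM or more in ECs only, 137 (20.8%) in Runx1+ IAHCs only, 196 (29.8%) in both and 275 (41.8%) in neither. Of the 1760 lower genes, 295 (16.8%) were at 10 TPM or more in ECs only, 157 (8.92%) in Runx1+ IAHCs only, 410 (23.3%) in both and 898 (51.02%) in neither. Of all 8792 genes, 713 (8.11%) were at this level in ECs only, 898 (10.2%) in Runx1+ IAHCs only, 5135 (58.4%) in both and 2046 (23.3%) in neither. The higher genes in neither included the platelet genes Thbs1, Treml1, F2rl2, Alox12 and Gp1ba. The lower genes in neither included Gstm3, Tcl1, Sox15 and Tex19.1.

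**Figure D4:**
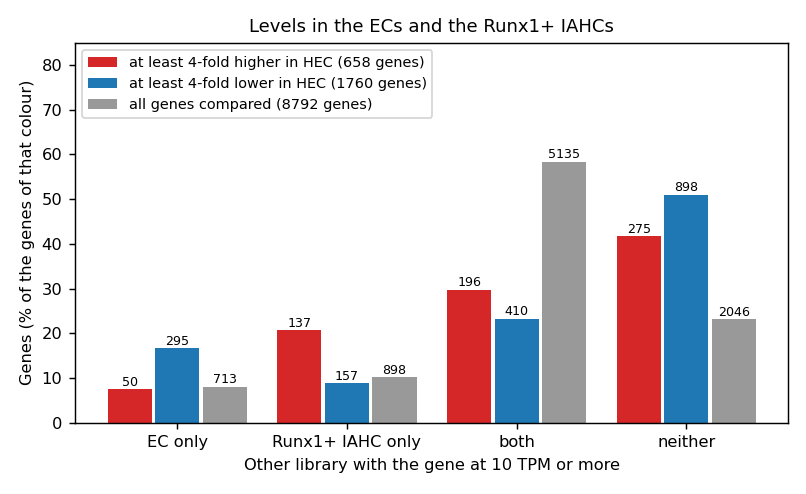
Share of the genes at least 4-fold higher (red, 658 genes) and at least 4-fold lower (blue, 1760 genes) in HECs than in Runx1- IAHCs, and of all genes compared (grey, 8792), that were at 10 TPM or more in ECs only, in Runx1+ IAHCs only, in both or in neither, as a percent of the genes of that colour with the number of genes above each bar. Neither is the tallest group for the higher genes (275) and the lower genes (898), whereas both is the tallest for all genes (5135).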

How the data were processed

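Poly(A) RNA of 4 sorted populations was measured, with 1 library each. The authors made full-length cDNA from part of the lysate, prepared libraries with a transposase kit that does not mark strand, aligned single reads to GRCm38 with HISAT2 2.0.4 and counted genes in union mode. The deposited values are TPM per gene on a linear scale. Union counting drops reads on more than 1 gene, so genes with close copies (globins, Rhox, Dppa5a, mitochondrial genes) and overlapping or antisense genes are uncertain. A total of 9 columns of other populations, in sheets beside the TPM table, were not used.

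Multiplied by exonic length (a later GENCODE release of the same build), TPM were whole multiples of a step in every library within 0.01 reads for 49371 genes (96.4%), with 1 read added throughout. For the other 1834 genes, 684 of them compared, the smallest length that gave whole reads was used, a search that returned the annotated length for 97.0% of 500 known genes. From the deposited TPM the difference of log2(TPM + 1) was computed (pseudocount 1 TPM, minimum 10 TPM in the higher library), with exact Poisson intervals for levels and Clopper-Pearson intervals for ratios (Python 3.11.15, pandas 2.3.3, SciPy 1.17.1). Read recovery and the rule of size were tested on simulated data. Named were the sort markers, the 12 genes highest and 12 lowest at 100 TPM or more without predicted symbols, the 10 most abundant genes per library and members of the lists. The comparison, lists and rule were chosen with earlier results of these data known. Promoters came from RefSeq (GRCm38.p6), which matched 5432 of the compared genes. Alternatives were other pseudocounts, scalings and minimums, and the added read left out. Results of some listed genes are not reported here.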

Additional observations from a re-analysis of the deposited data

How the results depend on the processing

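Depth limits genes near the floor of 3 reads, and no setting replaces a replicate. No paired analysis was possible because each population had 1 library. The counts of higher and lower genes were 413 and 929 with a pseudocount of 5 TPM, 1043 and 2647 with a minimum of 1 TPM and also with no minimum, and 259 and 619 with a minimum of 50 TPM. With a pseudocount of 0.1 TPM, under both other scalings and without the added read they stayed within 1.5 times the reported counts (658 to 788 and 1285 to 1923). Of the 658 higher genes 413 and of the 1760 lower genes 862 kept their call under every pseudocount and scaling and without the added read, and none of them took the other sign. The rescaling without mitochondrial, ribosomal protein and hemoglobin genes took out 12 higher and 5 lower genes, which were judged on the other settings. The median difference of all genes was -0.24 under median ratios, -0.14 with a minimum of 1 TPM, -0.39 with 50 TPM and -0.025 with no minimum. List medians changed sign for HSC-associated genes (0.53 under median ratios and 0.32 after rescaling without mitochondrial, ribosomal protein and hemoglobin genes), for erythroid genes (-0.079 after that rescaling, which takes the globins out), for lymphoid genes (1.84 with a minimum of 1 TPM), for cytokine receptors (0.17 with a minimum of 1 TPM, 0.30 with 50 TPM, 0.17 with none), for TGF-beta family ligands (0.49 with 1 TPM) and for EHT and HSPC surface genes (-0.16 with 50 TPM). The median also crossed 0 for arterial and Notch genes (0.23 as reported, -0.21 with a pseudocount of 5 TPM, with the same members, and -0.87 after the rescaling) for red cell membrane, heme and iron genes (0.26 under median ratios), for genes of caveolae and flow (0.25 with a minimum of 1 TPM and with none, 3.40 with 50 TPM) and for the sort markers (0.16 with no minimum). Which genes reach a minimum changes with the minimum and the scaling, and other causes were not tested.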

Other observations

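Ribosomal protein genes differed little between HECs and Runx1- IAHCs, with 0 of 80 at least 4-fold higher, 2 lower and a median difference of 0.38, and they took 4.51% of listed TPM in HECs and 3.88% in Runx1- IAHCs. Mitochondrially encoded genes took 4.98% of listed TPM in both libraries but did not move together. Among them mt-Rnr1, a ribosomal RNA, was at 6190 TPM in HECs, against 1443 in Runx1- IAHCs, 4.29-fold higher (4.21 to 4.37), whereas mt-Cytb, a subunit of complex III, was at 10179 TPM in HECs, against 26679 in Runx1- IAHCs. Nuclear copies of mitochondrial genes (Gm10925, Gm28437, Gm28661 and Gm29216) took 7.13% of listed TPM in HECs and 4.74% in Runx1- IAHCs. Hox genes lay mostly below the minimum, with 0 of 38 at 10 TPM or more in HECs and 4 in Runx1- IAHCs. The minimum thus set the direction of the 4 compared, Hoxb7 at 0.868 TPM in HECs, against 16.8 in Runx1- IAHCs. Over all 38 the median difference was -0.80. None of 11 cholesterol synthesis genes was 4-fold apart.

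Immediate early genes, which respond within minutes to a stimulus or to handling of cells, were lower in HECs for 4 of 11 and higher for 1. Over all genes 20.0% were lower and 7.48% higher. Of the 11, 2 entered through HECs only and 3 through Runx1- IAHCs only, so the minimum set the direction of these. Dusp1, a phosphatase of MAP kinases, was at 6.10 TPM in HECs, against 160 in Runx1- IAHCs, 26.3-fold lower (22.5 to 30.8), with 71.8 TPM in ECs, and Ier2 was at 55.8 TPM in HECs, against 448 in Runx1- IAHCs. Zfp36, which speeds the decay of mRNA, was at 49.99 TPM in HECs, against 11.6 in Runx1- IAHCs. Of the DNA methylation genes Dnmt3b, a de novo methyltransferase, was at 18.8 TPM in HECs, against 1.79 in Runx1- IAHCs, 10.6-fold higher (8.47 to 13.4), with 106 TPM in Runx1+ IAHCs, whereas Dnmt1 and Uhrf1 were within the rule of size.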
